A study of Homo sapiens with 30 samples.

Results

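The genes described here are 6 metallothionein genes (MT1E, MT1F, MT1G, MT1M, MT1X and MT2A), the metal-sensing transcription factor MTF1 and the zinc exporter SLC30A1, followed through every formula and dose in A549 cells. They were chosen by name, as 8 of the 60675 gene rows in the count table, and no threshold on a measured value is part of the rule. A549 is an established human lung carcinoma cell line. RNA was taken 24 h after adding an ethanol extract of 1 of 4 Korean tonifying herbal formulas (Sibjeondaebo-tang, Palmul-tang, Sagunja-tang and Samul-tang) at 20 (low), 100 (medium) or 500 µg/mL (high), or DMSO alone as vehicle. Vehicle and each dose of Palmul-tang and Sibjeondaebo-tang had 3 libraries, each dose of Samul-tang had 2 and each dose of Sagunja-tang had 1, which gives 30 libraries in 13 groups. Samul-tang and Sagunja-tang are joined in Palmul-tang, to which Sibjeondaebo-tang adds further herbs. Nothing in the labels says that replicates came from separate cultures, so p-values measure spread among libraries that may be technical replicates.

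Metallothioneins are small, cysteine-rich proteins that bind zinc, copper and cadmium and release or take up zinc as its supply changes. When free zinc rises, MTF1 enters the nucleus, binds short metal response elements in the promoters of metallothionein genes and of SLC30A1, and raises their transcription. SLC30A1 (also called ZnT1) sits in the plasma membrane and moves zinc out of the cell, while metallothionein transcripts also respond to glucocorticoids and oxidants. Metallothionein and SLC30A1 transcripts together are a common readout of the metal response.

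The 6 metallothionein members lie in 1 cluster on chromosome 16, from 56608199 to 56684196 (75998 bases, GRCh38, GENCODE 29 annotation). MT2A (ENSG00000125148) spans 56608199 to 56609497 and MT1X (ENSG00000187193) spans 56682424 to 56684196, both on the + strand, at the 2 ends of the cluster. Both other genes are on the - strand of chromosome 1, MTF1 (ENSG00000188786) from 37809567 to 37859620 and SLC30A1 (ENSG00000170385) from 211571568 to 211578742. RefSeq promoters (GRCh38.p14) were matched for 4 of the 8 members: MT2A, MT1X, SLC30A1 and MTF1. The promoters of MT1X and SLC30A1 are printed because these 2 transcripts carried most of the changes described below. Each is given 5′ to 3′ on the strand of its gene, with the core of the metal response element in capitals (TGCACNC or TGCGCNC, N being any base, searched on both strands). The MT1X sequence covers chr16:56682220-56682423 and stops just before the first annotated transcript base, so it holds 204 of the 250 bases searched. That of SLC30A1 covers chr1:211579162-211579411, the 250 bases before the RefSeq start.
MT1X: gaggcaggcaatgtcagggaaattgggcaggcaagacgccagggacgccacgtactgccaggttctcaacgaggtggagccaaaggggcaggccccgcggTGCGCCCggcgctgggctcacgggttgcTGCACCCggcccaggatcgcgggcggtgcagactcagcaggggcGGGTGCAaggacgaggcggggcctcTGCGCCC
SLC30A1: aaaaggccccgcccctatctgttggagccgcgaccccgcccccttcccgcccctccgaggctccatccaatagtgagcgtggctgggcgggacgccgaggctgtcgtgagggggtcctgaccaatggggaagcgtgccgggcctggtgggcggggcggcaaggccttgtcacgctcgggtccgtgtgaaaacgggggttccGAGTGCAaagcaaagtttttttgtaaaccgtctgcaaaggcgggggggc

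In the 250 bases before the RefSeq start, the core of the metal response element had 7 matches in MT2A, 4 in MT1X, 1 in SLC30A1 and 0 in MTF1. Of 35116 RefSeq promoters of that length, 24.8% held at least 1 match, 1.58% held 3 or more and 0.12% held 5 or more. The core of the antioxidant response element, TGACNNNGC on either strand, which NRF2 binds, had 1 match each in MT2A, MT1X and SLC30A1, 0 in MTF1, and at least 1 in 10.9% of all promoters. No match of one motif overlapped a match of the other in these 4 promoters. These are matches of letters only, and binding was not measured. The RefSeq starts of all 4 genes differ from the annotated gene starts above. The MT1X window (chr16:56682220-56682469) runs past the annotated gene start at 56682424. The MTF1 window (chr1:37859593-37859842) also takes in annotated bases of its gene, up to 37859620. The MT2A window (chr16:56608334-56608583) lies inside the annotated MT2A gene. That of SLC30A1 ends at 211579162, and the bases from there to the annotated start at 211578742 were not searched.

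Library totals ran from 23986616 to 35159892 counts, with a median of 32383969. The keratin transcripts KRT8 (3350 to 4400 CPM, counts scaled to library size) and KRT18 (2270 to 2920 CPM) were high in all 30 libraries, and CDKN2A, which is deleted in A549, had 0 counts in each. Among the other A549 and epithelial markers listed, AKR1B10 ran from 3530 to 4620 CPM, ALDH3A1 from 884 to 2050 and KRT19 from 225 to 301. CDH1 ran from 131 to 164 CPM, and EPCAM was lower, at 17.6 to 24.3. Of 8 markers of other cell types, PTPRC, CD3E, CDH5, PECAM1 and PDGFRB stayed under 0.5 CPM and LUM and COL1A1 reached 1.96 and 2.6 CPM. CD68, of macrophages but also of lysosomes in other cells, ran from 12.7 to 27 CPM. On the first principal component (14.7% of the variance), high-dose Sibjeondaebo-tang (3 libraries) stood apart from the other 27. On the second (10%), the vehicle libraries were at 30.8 to 43.1 and every extract library was at 6.09 or less. The library codes in the labels begin with 1 prefix for vehicle, another for Samul-tang and Sagunja-tang and another for Palmul-tang and Sibjeondaebo-tang, and what the prefix marks is not given in the sources used here. Any comparison with vehicle, and any of Samul-tang or Sagunja-tang with Palmul-tang or Sibjeondaebo-tang, therefore cannot be told apart from whatever the prefix marks. Doses of a formula, and Palmul-tang and Sibjeondaebo-tang, share a prefix.

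Of the 8 members, 5 passed the filter on low counts and were tested: MT2A, MT1X, MT1F, MTF1 and SLC30A1. MT1G and MT1M had 0 counts in every library and MT1E had 1 count in 1 library (Samul-tang at the high dose, replicate 2). A count of 0 allows up to 3 counts, which is 0.0846 to 0.122 CPM in these libraries and covers counting error only, so no fold change is given for these 3 genes. In the 100-base windows of their transcripts, MT1E, MT1F, MT1G, MT1M and MT2A shared none with another annotated gene, and 11.3% of the windows of MT1X were shared with AC026461.1, an overlapping annotation on the same strand that had 0 counts in all libraries. Outside the 8 members, MT1A was the one further metallothionein gene with counts in every library (9.88 to 15.9 CPM). Of the other 12 metallothionein genes and pseudogenes listed, MT3 had 8 counts in all and MT1XP1 had 1, and the remaining 10 had 0.

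MT2A was the most abundant member in every library, both in counts and per length of transcript. Per kilobase of the longest annotated transcript, the mean level in vehicle was 493 ± 34.2 CPM for MT2A, 56.2 ± 2.75 for MT1X, 10.1 ± 0.49 for SLC30A1, 2.27 ± 0.0759 for MTF1 and 1.56 ± 0.299 for MT1F (SD, n = 3). MT2A made up 81.7% to 85.6% and MT1X 14% to 17.9% of the summed counts of the 6 metallothionein members in each group. Over the 13 group means the highest level was 1.49 times the lowest for MT1X, 1.39 times for MT1F, 1.23 times for SLC30A1, 1.19 times for MT2A and 1.15 times for MTF1. MT1X thus had the widest range of group means and the transcription factor the narrowest.

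**Figure D1:**
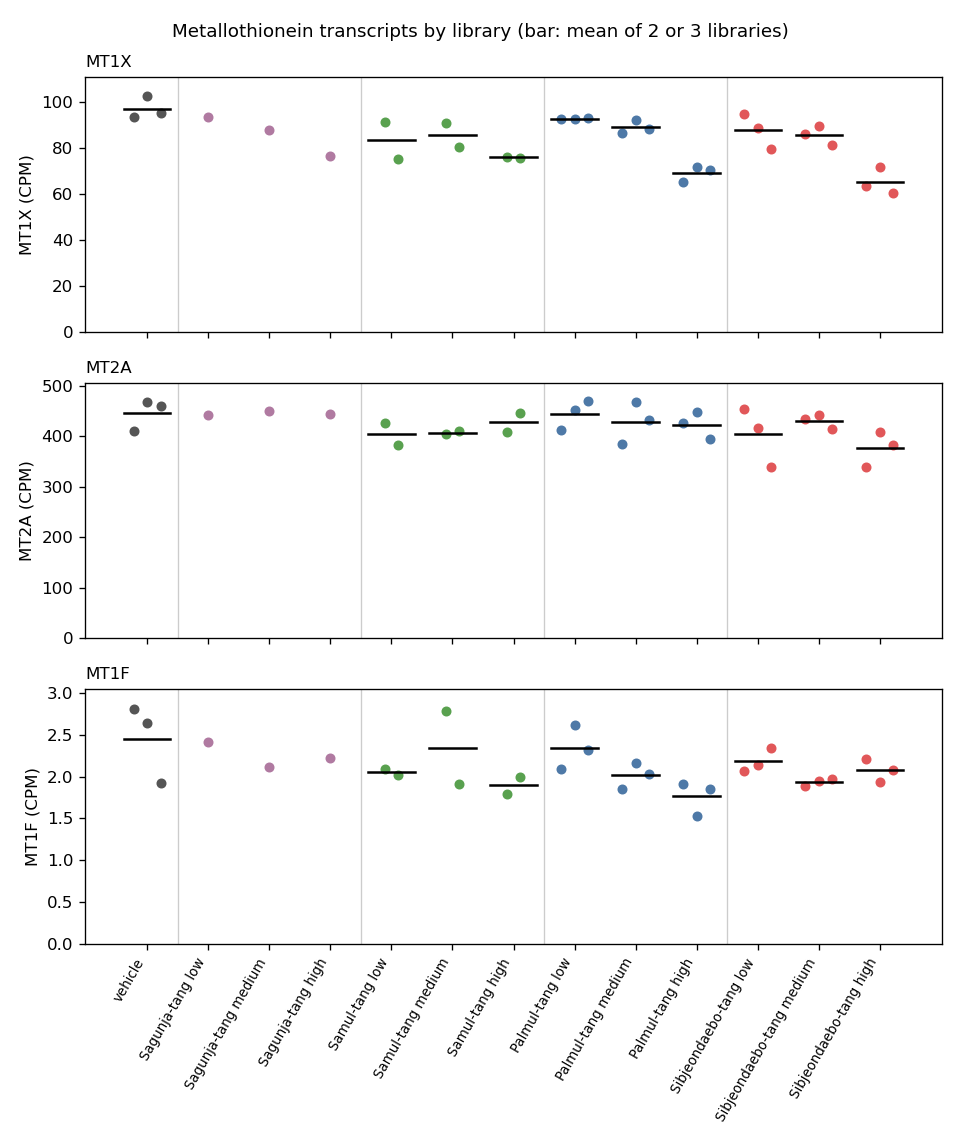
CPM of MT1X, MT2A and MT1F (y axes, from 0) in each of the 30 libraries by group (x axis); each point is 1 library and bars are means of groups with 2 or 3 libraries. MT1X is at 60.6 to 71.8 CPM in the high-dose libraries of Palmul-tang and Sibjeondaebo-tang and at 75.4 CPM or more elsewhere, while MT2A spreads from 338 to 470 CPM and its groups overlap.

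MT1X was lower at the high dose of Palmul-tang and Sibjeondaebo-tang than at any lower dose. From low to high dose its fitted level fell by 25.7% with Sibjeondaebo-tang and fell by 25.5% with Palmul-tang, and relative to vehicle it decreased by 32.8% and decreased by 28.9%. The 3 vehicle libraries gave 93.44, 102.5 and 95.47 CPM of MT1X. In Sibjeondaebo-tang it measured 94.93, 88.79 and 79.6 CPM at the low dose, 85.99, 89.53 and 81.57 at the medium dose and 63.64, 71.62 and 60.62 at the high dose. Every high-dose library was below every library of the 2 lower doses. The mean fell from 87.8 ± 7.72 to 65.3 ± 5.68 CPM between low and high dose (SD, n = 3), a log2 change of -0.43 (SE 0.07, adjusted p = 3.35e-05). This was 1 of 5 tested members called in that comparison, at an adjusted p under 0.05 over all 17701 genes tested, where 38.4% of genes were called. In bulk RNA, fewer cells with the transcript and less transcript per cell cannot be told apart.

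Palmul-tang gave 92.73, 92.52 and 92.93 CPM of MT1X at the low dose, 86.61, 92.26 and 88.49 at the medium dose and 65.05, 71.75 and 70.37 at the high dose. Again the high-dose libraries lay below all others of the formula, and the 3 low-dose libraries were nearly level. The mean fell from 92.7 ± 0.206 to 69.1 ± 3.54 CPM, with a log2 change of -0.43 (SE 0.07, adjusted p = 0.00038). MT1X was the 1 of 5 tested members called here too, against 3.47% of all genes. The dose effects of the formulas on MT1X, set against each other in 1 contrast, differed by a log2 value of -0.00 (95% interval -0.21 to 0.21, adjusted p = 0.993). This near equality depends on the scaling between libraries. On plain library totals the log2 changes were -0.58 in Sibjeondaebo-tang and -0.449 in Palmul-tang, and the contrast was -0.131.

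In Samul-tang the 2 libraries per dose gave 91.49 and 75.4 CPM of MT1X at the low dose, 90.78 and 80.63 at the medium dose and 76.13 and 75.82 at the high dose. The high-dose libraries were close together, but 1 low-dose library (replicate 3) sat just below them, so the groups overlapped. High minus low was -0.13 on the log2 scale (SE 0.085, 95% interval -0.31 to 0.05, adjusted p = 0.53). None of the 5 tested members was called in this comparison by edgeR or DESeq2, 1 (SLC30A1) had an unadjusted p under 0.05, and 1.34% of all genes were called. Sagunja-tang, with a single library per dose and no test, gave 93.37, 87.72 and 76.5 CPM from the low to the high dose.

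Against vehicle, at 97.1 ± 4.73 CPM, MT1X was lower at the high dose of all 3 replicated formulas. The log2 differences were -0.57 for Sibjeondaebo-tang (SE 0.071, adjusted p = 4.52e-07), -0.49 for Palmul-tang (SE 0.07, adjusted p = 7.13e-06) and -0.35 for Samul-tang (SE 0.078, adjusted p = 0.00144). These 3 comparisons share the vehicle libraries. At the low dose the difference was called in Samul-tang (-0.22, adjusted p = 0.0331), and it was lost without replicate 3 of that group (adjusted p = 0.548) or replicate 2 of vehicle (0.13). The low doses of Sibjeondaebo-tang (-0.15, adjusted p = 0.104) and Palmul-tang (-0.07, adjusted p = 0.495) were not called.

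From low to medium dose no tested member was called in any formula, by edgeR or DESeq2. The shares of all genes called in these comparisons were 0.0113% for Sibjeondaebo-tang, 0.00565% for Palmul-tang and 0% for Samul-tang, and the members with an unadjusted p under 0.05 were 0, 0 and 1 (SLC30A1 in Samul-tang, adjusted p = 0.834). For MT1X the medium-minus-low log2 values were -0.03, -0.06 and 0.04, with 95% intervals of -0.18 to 0.11, -0.20 to 0.09 and -0.14 to 0.22. In the order of the 13 groups, vehicle had the highest mean of MT1X and the 4 high-dose groups were the lowest, Sagunja-tang at 76.5, Samul-tang at 76, Palmul-tang at 69.1 and Sibjeondaebo-tang at 65.3 CPM. Of neighbours in this order that both have replicates, the steps from Palmul-tang low to medium and from Samul-tang high to Palmul-tang high were larger than the sum of their SDs, and the other steps were not. Tested directly, Samul-tang minus Palmul-tang at the high dose was 0.14 for MT1X (95% interval -0.03 to 0.30, adjusted p = 0.625), a comparison across library prefixes. None of the 5 members was called in that comparison by edgeR or DESeq2 and none had an unadjusted p under 0.05, against 0.192% of all genes called.

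**Figure D2:**
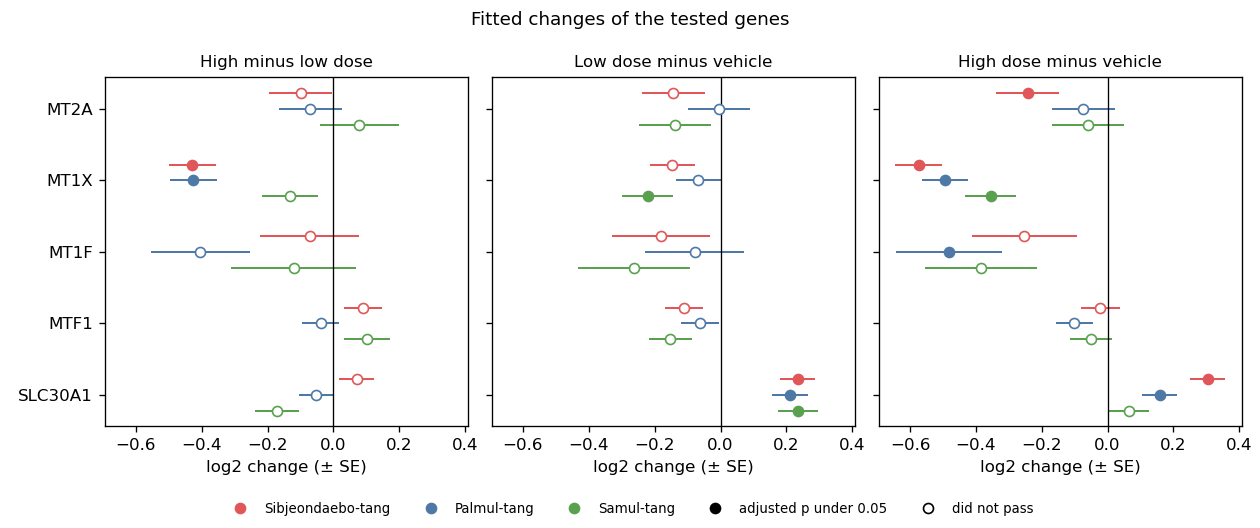
Fitted log2 changes (x axis, with SE bars) of the 5 tested members for 3 formulas, high minus low dose (left), low dose minus vehicle (middle) and high dose minus vehicle (right); filled points have an adjusted p under 0.05. MT1X is at -0.43 in 2 formulas on the left, and SLC30A1 is at 0.21 to 0.23 in the middle panel.

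MT2A, a widely expressed and metal-inducible metallothionein, did not show a called change between doses. Vehicle gave 410, 467.2 and 458.7 CPM. In Sibjeondaebo-tang the low dose gave 453.5, 416.4 and 339.8 CPM, the medium dose 434.7, 441.5 and 415, and the high dose 338.4, 407.9 and 382.5. The low-dose libraries alone ran from 339.8 to 453.5 CPM, and the groups overlapped. High minus low was -0.10 in log2 units for Sibjeondaebo-tang (95% interval -0.30 to 0.10, adjusted p = 0.447), -0.07 for Palmul-tang (-0.27 to 0.13, adjusted p = 0.83) and 0.08 for Samul-tang (-0.17 to 0.33, adjusted p = 0.845). The 3 Sagunja-tang libraries were within 6.1 CPM of each other, at 442.7, 448.8 and 444.4 from low to high dose. Palmul-tang ran from 394.9 to 448.4 CPM at the high dose and from 411.5 to 469.5 at the low dose. One comparison with vehicle was called, Sibjeondaebo-tang at the high dose (376 ± 35.2 against 445 ± 30.9 CPM, log2 -0.24, SE 0.096, adjusted p = 0.0491). It lies at the threshold and did not pass without vehicle replicate 2 (adjusted p = 0.163) or 3 (0.131), or without replicate 1 (log2 -0.15, adjusted p = 0.27) or 3 (0.106) of Sibjeondaebo-tang at the high dose, with RLE factors (0.0555) or with no filter on low counts (0.193).

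The balance between both abundant metallothioneins needs no scaling between libraries, because both counts come from the same library. It was looked at after the values were seen and is given as a description, with no test. The ratio of MT2A to MT1X counts was 5.32 to 6.55 in the 9 high-dose libraries (median 5.81) and 4.27 to 5.12 in the other 21 (median 4.8). No library of either kind reached the range of the other, Sagunja-tang and Samul-tang included. In Palmul-tang the high-dose ratios were 6.55, 6.25 and 5.61, in Sibjeondaebo-tang 5.32, 5.7 and 6.31, in Samul-tang 5.36 and 5.88, and in Sagunja-tang 5.81. On the log2 scale the high-dose mean exceeded the low-dose mean by 0.33 with Sibjeondaebo-tang, 0.36 with Palmul-tang and 0.21 with Samul-tang. A ratio shows that both transcripts changed unequally, not that either stayed level.

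**Figure D3:**
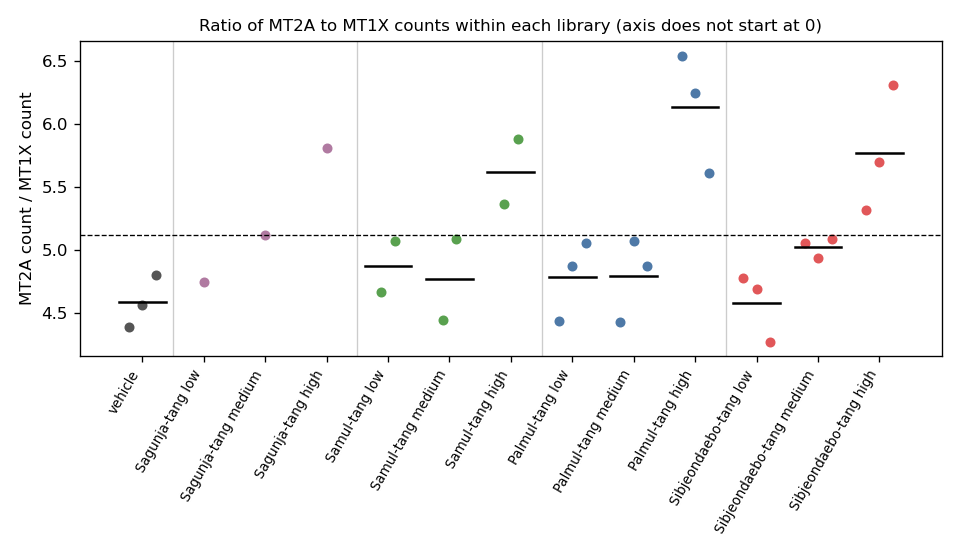
Ratio of MT2A counts to MT1X counts (y axis, not from 0) in each library by group (x axis); bars are means of groups with 2 or 3 libraries and the dashed line marks the highest ratio outside the high-dose groups. All 9 high-dose libraries lie above the line at 5.12, between 5.32 and 6.55.

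The lowly expressed MT1F, at 46 to 86 counts per library, measured 2.803, 2.637 and 1.917 CPM in vehicle. Palmul-tang gave 2.093, 2.617 and 2.313 CPM at the low dose and 1.916, 1.525 and 1.85 at the high dose. These 2 doses did not overlap, but the change of -0.40 on the log2 scale (SE 0.15, adjusted p = 0.175) was not called. High-dose Palmul-tang against vehicle was called (1.76 ± 0.209 against 2.45 ± 0.471 CPM, log2 -0.48, SE 0.16, adjusted p = 0.0146). That call did not hold without vehicle replicate 1 (adjusted p = 0.108) or 2 (0.0641), or without replicate 2 of the high dose (0.0742). High minus low was -0.07 in Sibjeondaebo-tang (adjusted p = 0.75) and -0.12 in Samul-tang (adjusted p = 0.855).

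The summed level of the 6 metallothionein members, which MT2A dominates, was 545 ± 34.4 CPM in vehicle and 444 ± 38.6 CPM at the high dose of Sibjeondaebo-tang, the highest and lowest of the 13 group means. Low and high dose of Sibjeondaebo-tang were at 493 ± 65.5 and 444 ± 38.6 CPM, those of Palmul-tang at 539 ± 29.8 and 494 ± 27.3, and those of Samul-tang at 490 ± 42.6 and 505 ± 26.6 (SD, n = 3, 3 and 2). Each of these differences was smaller than the sum of the SDs. On plain library totals, with no scaling factor, the log2 difference in Sibjeondaebo-tang was -0.302 in place of -0.153, since its high-dose libraries had smaller scaling factors.

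MT1A, a paralog outside the 8 members, was measured at 14.9 ± 1.1 CPM in vehicle and 11.7 to 13.4 CPM in the 12 extract groups. It was not called between doses in any formula (high minus low 0.05, 0.04 and 0.01, adjusted p = 0.658, 0.901 and 0.992). Against vehicle it was lower at the low doses of Sibjeondaebo-tang (-0.32, adjusted p = 0.00175), Palmul-tang (-0.23, adjusted p = 0.0219) and Samul-tang (-0.26, adjusted p = 0.0257), and at the high dose of Sibjeondaebo-tang (-0.27, adjusted p = 0.0079) and Samul-tang (-0.26, adjusted p = 0.032), and at -0.19 it was not called in high-dose Palmul-tang (adjusted p = 0.0544). The ratio of MT1A to MT1X counts, also chosen after the values were seen, was 0.162 to 0.208 in the 9 high-dose libraries and 0.124 to 0.164 in the other 21, so these overlapped slightly.

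SLC30A1 had a higher mean in every extract group than in vehicle, though not every group was tested or called, and it did not show a called dose effect. The vehicle libraries gave 52.5, 56.22 and 57.71 CPM. Sibjeondaebo-tang gave 58.48, 65.46 and 71.73 CPM at the low dose, 62.78, 67.16 and 63.02 at the medium dose and 69.3, 70.06 and 66.03 at the high dose. All 9 of these lay above all 3 vehicle libraries. Palmul-tang gave 62.3, 66.76 and 63.49 CPM at the low dose, 65.18, 65.37 and 65.26 at the medium dose and 60.34, 62.17 and 63.09 at the high dose, again all above vehicle. In Samul-tang the low dose gave 62 and 68.4 CPM, the medium dose 57.98 and 57.85 and the high dose 56.3 and 59.62, and 1 high-dose library was within the vehicle range. Sagunja-tang gave 64.71, 64.69 and 61.75 CPM from low to high dose.

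**Figure D4:**
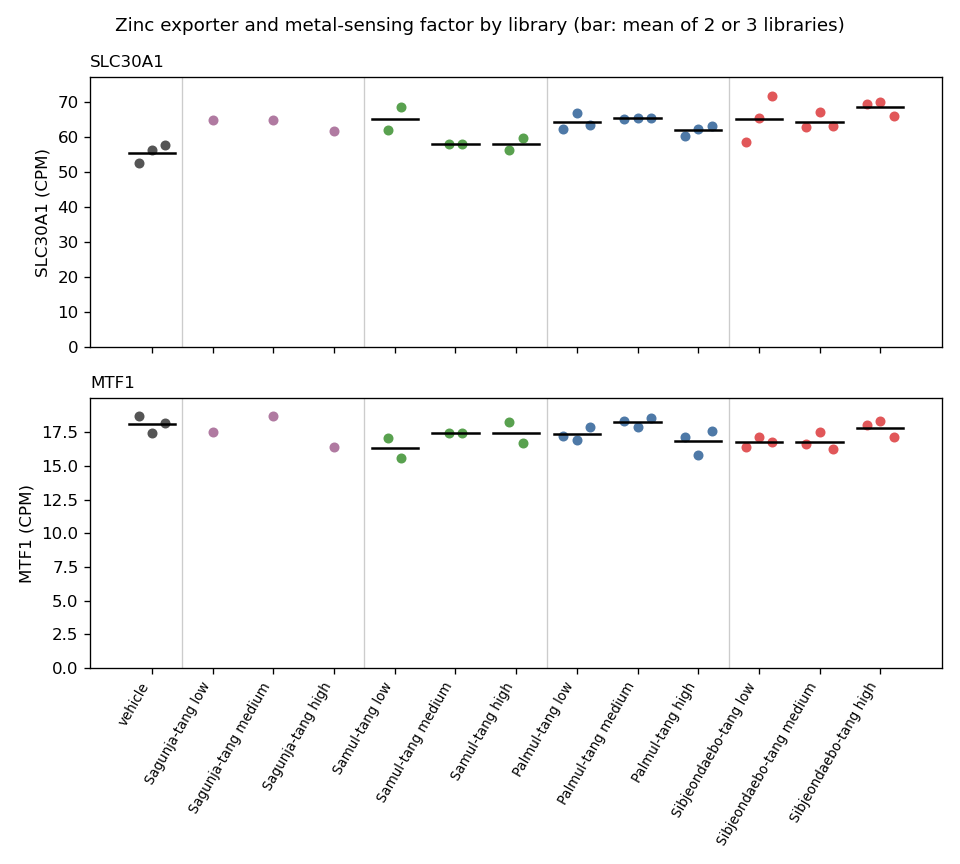
CPM of SLC30A1 and MTF1 (y axes, from 0) in each library by group (x axis); each point is 1 library and bars are means of groups with 2 or 3 libraries. SLC30A1 is lowest in vehicle (mean 55.5 CPM) and highest at the high dose of Sibjeondaebo-tang (68.5 CPM), while all MTF1 values lie between 15.6 and 18.7 CPM.

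At the low dose the log2 difference of SLC30A1 from vehicle was 0.23 in Sibjeondaebo-tang (SE 0.054, adjusted p = 0.000827), 0.21 in Palmul-tang (SE 0.054, adjusted p = 0.0024) and 0.23 in Samul-tang (SE 0.06, adjusted p = 0.0031). The Samul-tang value rests on replicate 3 of its low dose, without which the adjusted p was 0.168. SLC30A1 was the only tested member called at the low doses of Palmul-tang and Sibjeondaebo-tang against vehicle, and 1 of 2 at that of Samul-tang, where 36%, 36.9% and 30.7% of all genes were called. At the high dose it was 0.30 in Sibjeondaebo-tang (SE 0.054, adjusted p = 2.91e-05) and 0.16 in Palmul-tang (SE 0.054, adjusted p = 0.0209), and 0.06 in Samul-tang was not called (SE 0.061, adjusted p = 0.475). The Palmul-tang call was lost without vehicle replicate 1 (adjusted p = 0.136) or replicate 3 of the high dose (0.0701). Of the 5 tested members 3 were called at the high dose of Sibjeondaebo-tang, 3 at that of Palmul-tang and 1 at that of Samul-tang, against 41.8%, 37.1% and 29.2% of all genes. With so many genes called against vehicle, these counts are no result about the members as a group.

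High minus low for SLC30A1 was 0.07 in Sibjeondaebo-tang (95% interval -0.04 to 0.18, adjusted p = 0.318), -0.05 in Palmul-tang (-0.17 to 0.06, adjusted p = 0.741) and -0.17 in Samul-tang (-0.31 to -0.03, adjusted p = 0.215). On plain totals the Sibjeondaebo-tang value turned to -0.082. Without replicate 3 of the low dose, its highest library at 71.73 CPM, the value in Sibjeondaebo-tang was 0.14 with an adjusted p of 0.0374. At the high dose Sibjeondaebo-tang exceeded Palmul-tang (68.5 ± 2.14 against 61.9 ± 1.4 CPM, log2 0.15, SE 0.054, adjusted p = 0.0379), with no overlap between the libraries. SLC30A1 was the 1 of 5 members called between these groups, where 30.3% of all genes were called. The call was lost without Palmul-tang replicate 1 (adjusted p = 0.119) or 2 (0.0641) or Sibjeondaebo-tang replicate 2 (0.0546), and the log2 value was 0.0342 on plain totals. No member was called, by edgeR or DESeq2, in the contrast of the dose effects of both formulas (0.12 for SLC30A1, 95% interval -0.04 to 0.28), none had an unadjusted p under 0.05, and 14.9% of all genes were called.

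In the order of the group means of SLC30A1, Sibjeondaebo-tang at the high dose was the highest, above the medium dose of Palmul-tang (65.3 ± 0.0973 CPM) by more than the sum of their SDs, and vehicle was the lowest. No other neighbours with replicates differed beyond their SDs, and none did in the orders of MT2A, MT1F and MTF1.

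The ratio of SLC30A1 counts to the summed metallothionein counts, also chosen after the values were seen, was 0.102 ± 0.00318 in vehicle and 0.155 ± 0.0142 at the high dose of Sibjeondaebo-tang (SD, n = 3). The other 11 groups had means from 0.115 to 0.135. At the low dose of Sibjeondaebo-tang the libraries ran from 0.106 to 0.17, so the formula's doses overlapped. Across the 13 group means, levels of SLC30A1 and MT1X had a Pearson correlation of -0.217, and for MT2A and MT1X it was 0.563. These points, of which vehicle is 1, share the cell line and the scaling.

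MTF1, the factor that reads zinc, was not called in any of the 15 comparisons. It gave 18.66, 17.46 and 18.19 CPM in vehicle, and the 30 libraries ran from 15.6 to 18.7 CPM. High minus low was 0.09 in Sibjeondaebo-tang (95% interval -0.03 to 0.21), -0.04 in Palmul-tang (-0.16 to 0.08) and 0.10 in Samul-tang (-0.05 to 0.25), and its sign in Sibjeondaebo-tang turned on plain totals (-0.0631). The difference nearest to a call was the low dose of Samul-tang against vehicle (-0.15, SE 0.065, adjusted p = 0.071), which had an adjusted p of 0.0477 without replicate 2 of that dose. The median log2 change of the 5 tested members from low to high dose was -0.07 for Sibjeondaebo-tang, -0.07 for Palmul-tang and -0.12 for Samul-tang, beside medians over all genes of -0.01, 0.00 and -0.00.

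The rest of the zinc transport machinery was listed by family. Of 9 further genes of the SLC30 exporter family, 6 were tested and none was called from low to high dose in any formula. Against vehicle 3 of them were higher at the high dose of Sibjeondaebo-tang, Palmul-tang and Samul-tang alike, where 20%, 19% and 15.3% of all genes were higher. These were SLC30A5, SLC30A6 and SLC30A9, named after their values were seen. SLC30A5, a transporter of the early secretory pathway, was at 50.9 ± 2.66 CPM in high-dose Sibjeondaebo-tang and 38.3 ± 2.53 in vehicle (log2 0.41, adjusted p = 1.35e-07). Its partner SLC30A6 was at 54.2 ± 2.09 against 42 ± 1.99 CPM (0.37, adjusted p = 2.14e-07). The same 3 genes were higher at the low doses too, for example SLC30A6 at 55.4 ± 2.1 CPM in Sibjeondaebo-tang (0.40, adjusted p = 1.28e-07). At the low doses SLC30A3 was lower in Sibjeondaebo-tang (-0.61, adjusted p = 0.00623) and Palmul-tang (-0.54, adjusted p = 0.0147), and SLC30A7 was the fourth exporter called higher in Samul-tang (0.18, adjusted p = 0.0416), both named after their values were seen. Of all genes, 18.6%, 18.2% and 15.6% were higher and 18.2%, 17.8% and 15.1% lower at the low doses of Sibjeondaebo-tang, Palmul-tang and Samul-tang.

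Among the SLC39 importers, which bring zinc into the cytosol, 11 of 14 were tested. In Sibjeondaebo-tang 5 rose and none fell from low to high dose, in Palmul-tang none rose and 1 fell, and in Samul-tang none was called. Of all genes, 18.5% rose and 19.9% fell in the first of these comparisons, 1.46% rose and 2.02% fell in the second and 0.604% rose and 0.74% fell in the third. SLC39A3 rose from 17.8 ± 0.635 to 23.7 ± 0.948 CPM in Sibjeondaebo-tang (0.41, adjusted p = 9.07e-07) and had a log2 change of 0.03 in Palmul-tang (adjusted p = 0.881). The contrast of these dose effects was itself called (0.38, SE 0.081, adjusted p = 0.00132), one of 4 importers called higher in it, as were 5.59% of all genes. SLC39A10 rose from 31.5 ± 0.948 to 38.8 ± 1.6 CPM in Sibjeondaebo-tang (0.30, adjusted p = 6.36e-05), and SLC39A4, the intestinal zinc importer, from 24.7 ± 2.92 to 30.3 ± 2.87 CPM (0.30, adjusted p = 0.00254). SLC39A8, which also carries manganese and cadmium, fell in Palmul-tang from 124 ± 3.38 to 102 ± 3.72 CPM (-0.29, adjusted p = 0.000117). The median change of the tested importers was 0.09 with Sibjeondaebo-tang, 0.01 with Palmul-tang and 0.04 with Samul-tang, beside -0.01, 0.00 and -0.00 over all genes.

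Genes known to respond to metals or oxidants along other routes were counted for comparison. Of 10 NRF2 targets, 8 rose from low to high dose with Sibjeondaebo-tang, 6 with Palmul-tang and 5 with Samul-tang, and none fell. The shares of all genes that rose were 18.5%, 1.46% and 0.604%, and the median changes of the targets were 0.29, 0.23 and 0.18. HMOX1, which degrades heme and is induced by metals and oxidants, was at 45.4 ± 2.64 CPM at the low and 84.4 ± 4.86 CPM at the high dose of Sibjeondaebo-tang (0.90, adjusted p = 1.49e-14). With Palmul-tang it rose from 45.1 ± 1.51 to 67.3 ± 1.86 CPM (0.58, adjusted p = 4.34e-09), and with Samul-tang from 43.8 ± 0.623 to 78.2 ± 0.944 CPM (0.84, adjusted p = 5.06e-10). GCLM, of glutathione synthesis, rose in the same 3 formulas (0.44, 0.38 and 0.35, adjusted p = 6.61e-10, 1.29e-07 and 9.77e-05). Against vehicle (53.2 ± 3.89 CPM), HMOX1 was lower at the 3 low doses (-0.23, -0.24 and -0.28, adjusted p = 0.000908, 0.000688 and 0.000637). It was higher at the 3 high doses (0.67, 0.34 and 0.56). Of the 10 targets, 6, 6 and 4 were higher than vehicle at the low doses, and 4 were lower at each. Of all genes, 18.6%, 18.2% and 15.6% were higher there and 18.2%, 17.8% and 15.1% lower. Of 9 tested heat shock genes that heavy metals induce, 5 rose from low to high dose with Sibjeondaebo-tang, none with Palmul-tang and 1 with Samul-tang. Of all genes, 18.5%, 1.46% and 0.604% rose. The small heat shock protein HSPB1 rose from 574 ± 75.9 to 743 ± 33.3 CPM in Sibjeondaebo-tang (0.37, adjusted p = 0.00164), and the co-chaperone BAG3 rose from 180 ± 15.8 to 227 ± 2.95 CPM in Samul-tang (0.34, adjusted p = 0.0285). From low to high dose, HMOX1 rose in all 3 formulas and no tested metallothionein was called higher. MT1X was called lower in Palmul-tang and Sibjeondaebo-tang but not in Samul-tang (-0.13, adjusted p = 0.53). A link between HMOX1 and MT1X was not tested. CD68 also differed in Sibjeondaebo-tang, at 21.7 ± 1.33 CPM at the high and 14.3 ± 2.52 at the low dose (0.60, adjusted p = 0.000584), as 1 of 4 tested markers of other cell types. Its part in the change of MT1X was not tested, and the leukocyte marker PTPRC was at most 0.226 CPM in any library. Of the 7 A549 and epithelial markers, 5 were called higher and 1 lower between these doses, beside 18.5% and 19.9% of all genes.

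The genes whose group means were most like those of each member were found among 11148 tested genes by Pearson correlation over the 13 groups, as a description in which all genes share the libraries. For MT1X they were TPM1, a tropomyosin of actin filaments (0.939), ACBD4 (0.928) and TET1, a DNA demethylating enzyme (0.92). For SLC30A1 they were HPGD, which inactivates prostaglandins (0.954), SUCLA2 of the citric acid cycle (0.95) and the growth factor FGF2 (0.942). For MT2A they were NOL4L (0.923), ZNF618 (0.889) and KLHL29 (0.869), for MT1F MYO15B (0.851), PLPP3 (0.834) and PTPRF (0.833), and for MTF1 SAYSD1 (0.795), USP18 (0.783) and VRK3 (0.717). Over the 30 single libraries the correlation of MT1X with TPM1 was 0.883 and that of SLC30A1 with HPGD was 0.837, while that of MTF1 with VRK3 was 0.0475.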

How the data were processed

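Messenger RNA of A549 cells was sequenced as 100-base pairs from directional libraries, per the labels' protocols. Per the submitters' processing notes, FastQC 0.11.9, Trim Galore 0.6.5, STAR 2.7.3a, RSEM 1.3.3 and GRCh38 were used; the annotation release and strand setting are not given in the sources used here. The values deposited by the authors are RSEM expected counts per gene, which divide shared reads among genes (8.5% to 9.82% of values per library are not whole), and were rounded here. The table holds 240 further columns that were not used.

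The filterByExpr function, given the groups, kept 17701 genes, and 1 mean per group was fitted over all 30 libraries with edgeR 4.0.16 in R 4.3.3 (TMM, factors 0.923 to 1.051, glmQLFit with robust estimation, glmQLFTest, 17 residual degrees of freedom). P-values were adjusted by Benjamini-Hochberg over all genes, with a threshold of 0.05. CPM use TMM-scaled library sizes.

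Members, gene lists and tests were chosen with earlier results of these data known. Named genes were the 8 members, up to 4 genes of each other list with the smallest adjusted p from low to high dose, and for each tested member the 3 genes most like it among those whose mean log2 CPM reached 2. Others are said to be chosen after their values were seen. SLC30A3, SLC30A5, SLC30A6, SLC30A7, SLC30A9 and the 3 ratios are such choices.

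Replicate numbers were checked as pairs: deviations from group means correlated with a median of 0.00614 over 111 pairs of the same number (-0.122 to 0.0886) and -0.000258 over 216 of different numbers (-0.148 to 0.137), so the numbers were not used as pairs. No libraries were identical. Alternatives were DESeq2 1.42.0, RLE factors, no filter, a fit to the compared groups alone, a replicate block, each library left out, and, added after the data were seen, plain library totals for single genes and MT1A in the sum.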

Additional observations from a re-analysis of the deposited data

How the results depend on the processing

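Of 75 values (5 tested members in 15 comparisons), 14 were called as reported, 5 more only under some alternative, and 56 in none. The MT1X change from low to high dose was called in all 11 alternatives in Sibjeondaebo-tang (-0.493 to -0.354) and in Palmul-tang (-0.456 to -0.384). MT1X against vehicle at the high dose of the 3 replicated formulas, and SLC30A1 against vehicle at both doses of Sibjeondaebo-tang and the low dose of Palmul-tang, were likewise called in every alternative run. No called value changed sign. Of the 616 alternative values for the 56 uncalled results, 47 had the other sign, the largest at 0.108. Plain totals shifted all genes by -0.15 in the Sibjeondaebo-tang dose comparison, -0.10 against vehicle at its high dose and -0.11 against Palmul-tang. MT1F, at 46 to 86 counts per library, had the lowest counts of the tested members, and how much of its spread is counting error was not tested.

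The number of members called moved as follows when 1 library was left out, from lowest to highest. Sibjeondaebo-tang high minus low had 1 to 2 (SLC30A1 added), Sibjeondaebo-tang minus Palmul-tang at the high dose 0 to 1, Sibjeondaebo-tang high minus vehicle 2 to 3 (MT2A lost), Palmul-tang high minus vehicle 1 to 3, Samul-tang high minus vehicle 1 to 2 (MT1F added without vehicle replicate 3, adjusted p = 0.0256), Sibjeondaebo-tang low minus vehicle 1 to 2 and Samul-tang low minus vehicle 0 to 3 (MTF1 added without replicate 2 of that dose). The other 8 comparisons kept their number. Fitting only the groups compared gave 2 for Sibjeondaebo-tang minus Palmul-tang, with MT2A added (-0.177, adjusted p = 0.0481). With no filter on low counts Sibjeondaebo-tang low minus vehicle had 2, with MT1X added (adjusted p = 0.0315). The replicate block also gave 2 there, with MT1X added (adjusted p = 0.0291), and changed no other member's call; the numbers do not pair the libraries. The causes were not tested. Where leaving out a library left 1 in an arm of Samul-tang, that library was assumed to vary like the other groups.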

Other observations

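Copper handling genes were listed because metallothioneins also bind copper. Of 12 tested, 4 rose and 3 fell from low to high dose in Sibjeondaebo-tang, and none was called in Palmul-tang or Samul-tang. Of all genes, 18.5% rose and 19.9% fell in Sibjeondaebo-tang, and 3.47% were called in Palmul-tang and 1.34% in Samul-tang. CP (ceruloplasmin), the copper-binding ferroxidase of plasma, fell from 287 ± 8.72 to 224 ± 26.6 CPM (-0.36, SE 0.075, adjusted p = 0.000639), and ATP7A, a copper-exporting ATPase, from 30.1 ± 0.963 to 26.2 ± 2.03 CPM (-0.20, SE 0.057, adjusted p = 0.00514). SOD1, the copper and zinc superoxide dismutase, rose from 140 ± 4.33 to 162 ± 6.48 CPM (0.21, SE 0.048, adjusted p = 0.000955), and COMMD1 rose from 19.8 ± 1.57 to 22.6 ± 1.24 CPM (0.19, SE 0.062, adjusted p = 0.0154). Against vehicle, at 187 ± 12.4 CPM, CP was higher at the high dose of Sibjeondaebo-tang (0.26, adjusted p = 0.00827), Palmul-tang (0.48, adjusted p = 3.19e-05) and Samul-tang (0.72, adjusted p = 2.16e-06).

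Glucocorticoid receptor targets were listed because glucocorticoids also raise metallothionein transcripts. Of 11 tested, 2 rose and 2 fell from low to high dose in Sibjeondaebo-tang, 1 rose and 1 fell in Palmul-tang, and 1 fell in Samul-tang. The shares of all genes called were 38.4%, 3.47% and 1.34%, so the count in Sibjeondaebo-tang is near the background. KLF9, a hormone-responsive transcription factor, fell in all 3 (-0.25, -0.34 and -0.27, adjusted p = 7.87e-05, 9.18e-06 and 0.0101). TSC22D3 (GILZ) fell from 229 ± 4.3 to 210 ± 4.79 CPM in Sibjeondaebo-tang (-0.12, adjusted p = 0.0133). TIPARP, which the aryl hydrocarbon receptor also induces, rose in Sibjeondaebo-tang (0.36, adjusted p = 1.34e-06) and Palmul-tang (0.29, adjusted p = 0.000443).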
